A study of Mus musculus with 6 samples.

Results

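The genes described here are 8 heat shock chaperone genes and 2 cold-inducible RNA-binding protein genes, measured in mouse pancreatic islets around the day. The listed heat shock genes were Hspa1a, Hspa1b, Hsph1, Dnajb1, Hspa8, Hsp90aa1, Hspe1 and Hspd1, and the cold-inducible genes were Cirbp and Rbm3. Members were found as probes, spots of a short DNA that captures the RNA of a gene, whose transcript accession was a RefSeq transcript of a listed gene. Of the 10 listed genes, 9 had such a probe and all 9 passed the filter on dim signals, among 24127 genes tested. Hspa1b had none, so it has no value here. The 9 genes were read by 16 probes, of which 15 were tested. The donors were male C57BL6 mice aged 8 weeks on chow, kept in a cycle with 12 h light and 12 h dark phases. Islets were taken at zeitgeber time (ZT) 0, 4, 8, 12, 16 and 20 h, where ZT0 is lights on and ZT12 lights off. Each time point was a single RNA pool from 3 to 5 mice, labelled with Cy3 and read on 1 Agilent array. Every value below is therefore a single array of a pool, with no replicate at any time.

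Heat shock proteins are chaperones that bind unfolded proteins and help them refold. Their genes are switched on by the transcription factor HSF1 when proteins unfold, for example when temperature climbs. Cirbp and Rbm3 encode small RNA-binding proteins whose mRNAs accumulate when cells are mildly cooled. In mice, which are active at night, body temperature is higher in the dark phase than in the light phase, and in mouse liver heat shock transcripts and Cirbp are known to follow this daily cycle in opposite phases. The comparison made here was heat shock genes against Cirbp and Rbm3 over the 6 times.

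HSF1 binds heat shock elements, alternating repeats of GAA and TTC. The promoters below are shown because they are those of the inducible HSP70 gene, of the heat shock gene with the smallest p, of the gene pair that tracked each other most closely, and of Cirbp as the cold-inducible counterpart. Each runs 5′ to 3′ from 250 bases before to 50 bases after the gene's start, from RefSeq on GRCm38.p6. Capitals mark every match to GAANNTTC or TTCNNGAA, which read the same on both strands and which overlap each other where units alternate.
Hspa1a promoter, chr17:34972107-34972406, minus strand: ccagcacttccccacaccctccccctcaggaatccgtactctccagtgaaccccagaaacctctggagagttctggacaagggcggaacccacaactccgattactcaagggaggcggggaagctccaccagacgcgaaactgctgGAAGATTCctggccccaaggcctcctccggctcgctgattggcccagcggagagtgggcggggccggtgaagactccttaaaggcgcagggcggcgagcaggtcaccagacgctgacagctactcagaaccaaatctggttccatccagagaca
Hsph1 promoter, chr5:149636287-149636586, minus strand: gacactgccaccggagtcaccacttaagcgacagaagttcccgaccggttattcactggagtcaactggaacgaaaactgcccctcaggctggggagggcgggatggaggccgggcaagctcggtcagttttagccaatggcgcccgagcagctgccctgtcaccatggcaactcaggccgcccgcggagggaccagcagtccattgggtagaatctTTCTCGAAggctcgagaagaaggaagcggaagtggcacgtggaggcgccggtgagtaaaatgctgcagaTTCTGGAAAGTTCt
Hspe1 promoter, chr1:55087898-55088197, plus strand: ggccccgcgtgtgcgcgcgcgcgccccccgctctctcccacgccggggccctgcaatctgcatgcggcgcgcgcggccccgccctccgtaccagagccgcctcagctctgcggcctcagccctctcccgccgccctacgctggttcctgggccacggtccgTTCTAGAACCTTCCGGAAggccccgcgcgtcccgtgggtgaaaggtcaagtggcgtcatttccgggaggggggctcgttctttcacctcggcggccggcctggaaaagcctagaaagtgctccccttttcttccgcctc
Cirbp promoter, chr10:80167589-80167888, plus strand: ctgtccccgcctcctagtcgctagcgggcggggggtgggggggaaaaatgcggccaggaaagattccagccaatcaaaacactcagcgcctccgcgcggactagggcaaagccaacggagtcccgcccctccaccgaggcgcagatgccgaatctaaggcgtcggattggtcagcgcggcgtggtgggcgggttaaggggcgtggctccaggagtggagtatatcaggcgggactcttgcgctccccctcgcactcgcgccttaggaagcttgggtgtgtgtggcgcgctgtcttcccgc
Promoters of 7 of the 10 listed genes were matched, without Hspa8, Hsp90aa1 and Rbm3. GAANNTTC was present in 7.86% and TTCNNGAA in 8.52% of 32851 promoter windows of this length, and either motif in 15.1%. Either motif was present in a window of 5 of the 7 genes, namely Hspa1a, Hspa1b, Hsph1, Hspe1 and Hspd1, and in no window of Dnajb1 or Cirbp. These 5 were not independent. The windows of Hspa1a and Hspa1b were identical at 296 of 300 positions. Hspe1 and Hspd1 lie head to head, and the Hspe1 window shared 285 bases with 1 of the 2 Hspd1 windows, all 285 identical on the opposite strand. A longer run of units, GAANNTTCNNGAA or its reverse TTCNNGAANNTTC, was present in 0.603% of windows. It was present for Hspe1, beginning 89 bases before the start, for Hspd1 in the shared bases, and for Hsph1 just after the start. A match says only that these letters are in the window.

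On all 6 arrays the 11 measured endocrine markers were well above background. Markers of other cells moved between arrays. Median deviations of a list from each gene's own mean over the arrays ran from -3.02 to 2.42 log2 units for lymphocyte, -1.79 to 1.80 for macrophage, -1.55 to 1.06 for stromal, -2.34 to 0.97 for endocrine and -1.37 to 0.68 for acinar markers. Duct and endothelial medians ran from -1.91 to 1.03 and from -0.56 to 0.32. Hepatocyte markers stood at 7.80 at ZT20 and intestinal markers at 6.13 at ZT4, and at or below 0.25 on the other arrays. Among these 6 arrays, ZT0 and ZT4 each had a scan of their own, and the other 4 arrays shared a scan. Outlier marks were most frequent at ZT0, on 1743 spots, compared with 166 to 247 on each other array. The ZT4 array was the dimmest, with a 75th percentile of 506 against 1229 to 2090 elsewhere and 66.1% of probes well above background against 70.8 to 84.4%. In pooled tissue, fewer cells of a type and less RNA per cell cannot be told apart.

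Levels are log2 signals relative to the 75th percentile of their own array, so 0 is a signal at that percentile and a step of 1 is a doubling. Levels of different probes were not compared as amounts of RNA, since probes differ in how strongly they bind. They were ranked to pick the brightest probe of a gene and the brightest genes of a list. Signals were also summed over marker lists, where bright probes weigh most. Between the highest and lowest array, 9 of 9 members differed by more than 2-fold, as did 90.2% of all genes tested. Past 4-fold there were 3 of 9, Hspa1a, Hsph1 and Rbm3, beside 53.3% of all genes. That count was 1 without the ZT12 array and 1 with normexp background correction. The median range was 1.59 log2 units over the 9 members and 2.10 over all genes.

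**Figure D1:**
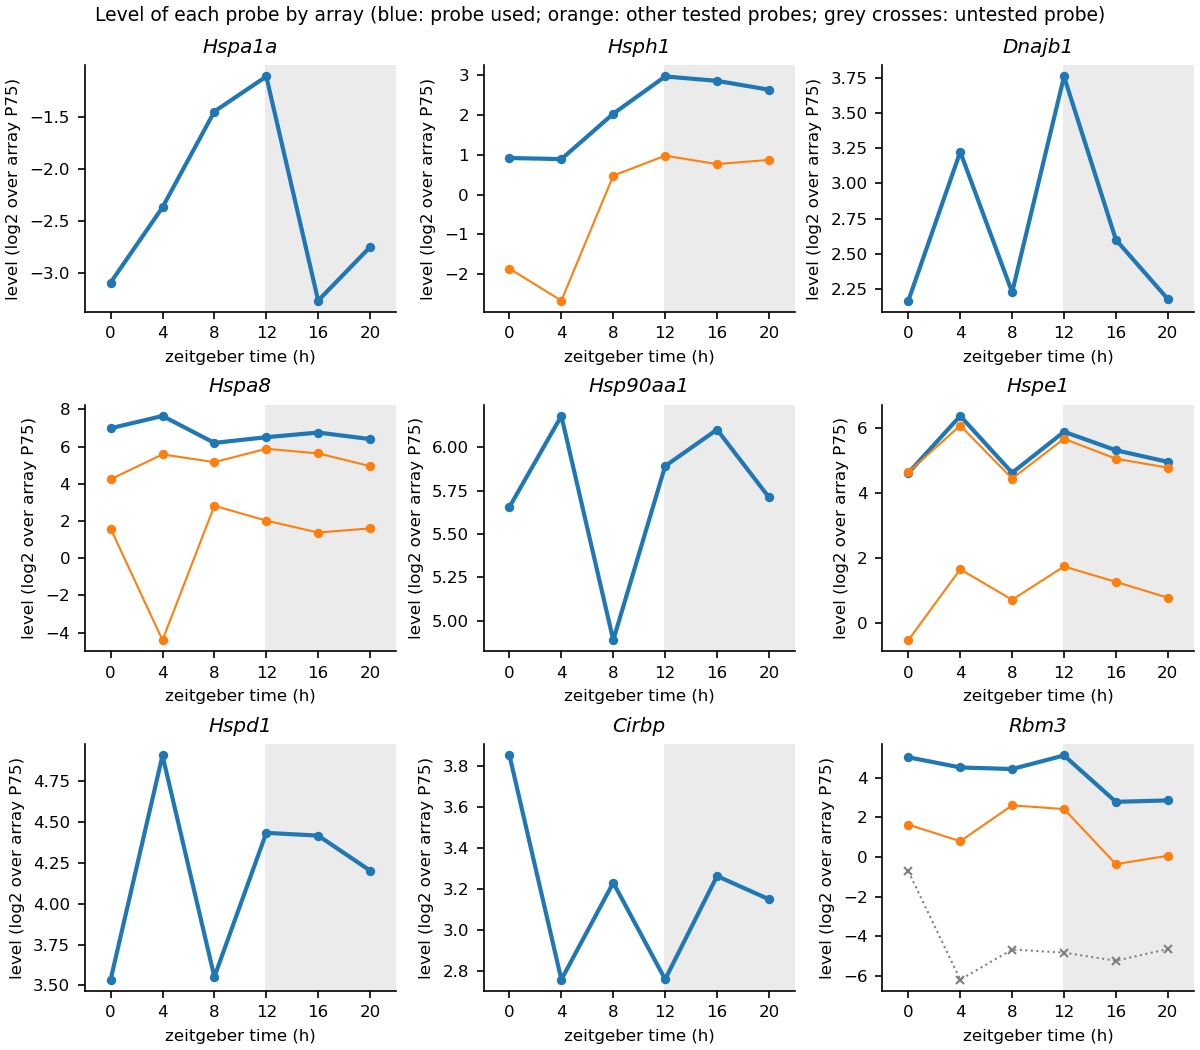
Level of every member probe (log2 over the 75th percentile of the array) against zeitgeber time, 1 array per point, with the dark phase shaded. The probe used for each gene is blue, other tested probes are orange and the untested Rbm3 probe is grey; the 2 lower Rbm3 points at ZT16 and ZT20 and the 2 lower Hsph1 points at ZT0 and ZT4 are seen on both tested probes of each gene.

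Among the stress-inducible chaperones, Hspa1a, an HSP70 that is scarce in resting cells and strongly induced by heat, had levels of -3.09, -2.37, -1.45, -1.11, -3.27 and -2.75 from ZT0 to ZT20. It was 4.47-fold higher at ZT12 than at ZT16. Its signal was dim but well above background on all 6 arrays. ZT8 and ZT12 were the high arrays, and ZT12 was highest under all 5 scalings compared, of which the authors' values and quantile normalization gave nearly the same deviations. ZT16 was lowest, as in 12.7% of all genes, with the 75th percentile and with the median, and ZT0 was lowest with the other 3 scalings. Because Hspa1a and Hspa1b are near-identical genes, signal on this probe can come from either, which was not tested.

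Hsph1 encodes an HSP110 that exchanges nucleotide on HSP70. Its levels were 0.92, 0.89, 2.03, 2.97, 2.86 and 2.63 from ZT0 to ZT20, a 4.21-fold difference between ZT12 and ZT4. ZT0 and ZT4 lay below the other 4 arrays, an order seen in 12% of all genes. A second Hsph1 probe gave -1.86, -2.66, 0.48, 0.98, 0.77 and 0.87 in the same order of times, and correlated with the first at Pearson's r of 0.956 over the 6 arrays. The 2 low arrays were also those scanned apart from the rest, so scan and time of day cannot be told apart for this difference. Among the 4 arrays of the shared scan the level went no lower than 2.03.

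Dnajb1, an HSP40 that delivers clients to HSP70, had levels of 2.17, 3.22, 2.23, 3.76, 2.60 and 2.18 from ZT0 to ZT20. ZT12 was highest under all 5 scalings and 3.01-fold above the lowest array, ZT0, which was the lowest of 23.7% of all genes. ZT20 and ZT8 were nearly as low as ZT0 for Dnajb1, and ZT20 was its lowest array with normexp background correction. Thus ZT12 was the highest array for Hspa1a, Hsph1 and Dnajb1, although for Hsph1 it was ZT16 under quantile normalization and in the authors' values. ZT12 was the highest array for 16.6% of all genes and ZT16 for 17.3%. It was also where the lymphocyte and macrophage medians stood at 2.17 and 1.61 and the endocrine median at -2.34, and their part in these levels was not tested.

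Hspa8 and Hsp90aa1 were bright on every array. Hspa8, the HSP70 of unstressed cells, had levels of 6.99, 7.65, 6.20, 6.51, 6.76 and 6.41 from ZT0 to ZT20. Hsp90aa1, the inducible cytosolic HSP90, had 5.66, 6.18, 4.89, 5.89, 6.10 and 5.71 at the same times. Both were highest at ZT4 and lowest at ZT8, by 2.73-fold for Hspa8 and 2.45-fold for Hsp90aa1. ZT4 was the highest array for 23.4% and ZT8 the lowest for 8.63% of all genes. That order did not hold under quantile normalization, where both were highest at ZT16 (deviations of 0.46 and 0.87) and lowest at ZT0 (-0.40 and -0.59). The 3 probes of Hspa8 disagreed. The second gave its highest level, 5.88, at ZT12, and the dimmest gave -4.41 at ZT4 against 1.38 to 2.82 elsewhere. Their Pearson's r with the brightest probe was 0.04 and -0.91 over 6 arrays.

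Hspe1 and Hspd1 encode HSP10 and HSP60, the lid and the barrel of the mitochondrial folding chamber. Hspe1 had levels of 4.62, 6.37, 4.62, 5.88, 5.32 and 4.96 from ZT0 to ZT20. Hspd1 had 3.54, 4.91, 3.55, 4.43, 4.42 and 4.20 at the same times. ZT4 and ZT12 were the 2 highest arrays and ZT0 and ZT8 the 2 lowest for both genes, with Pearson's r of 0.931 over 6 arrays, the highest among pairs of members. The difference between their deviations, in which the scaling of an array cancels, stayed between -0.36 and 0.34 log2 units. These are the genes whose shared promoter is printed above. All 3 Hspe1 probes had ZT4 and ZT12 as their 2 highest arrays. Under quantile normalization ZT16 was highest for both genes, at 0.51 for Hspe1 and 0.57 for Hspd1, and ZT0 remained lowest at -0.93 and -0.71.

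**Figure D2:**
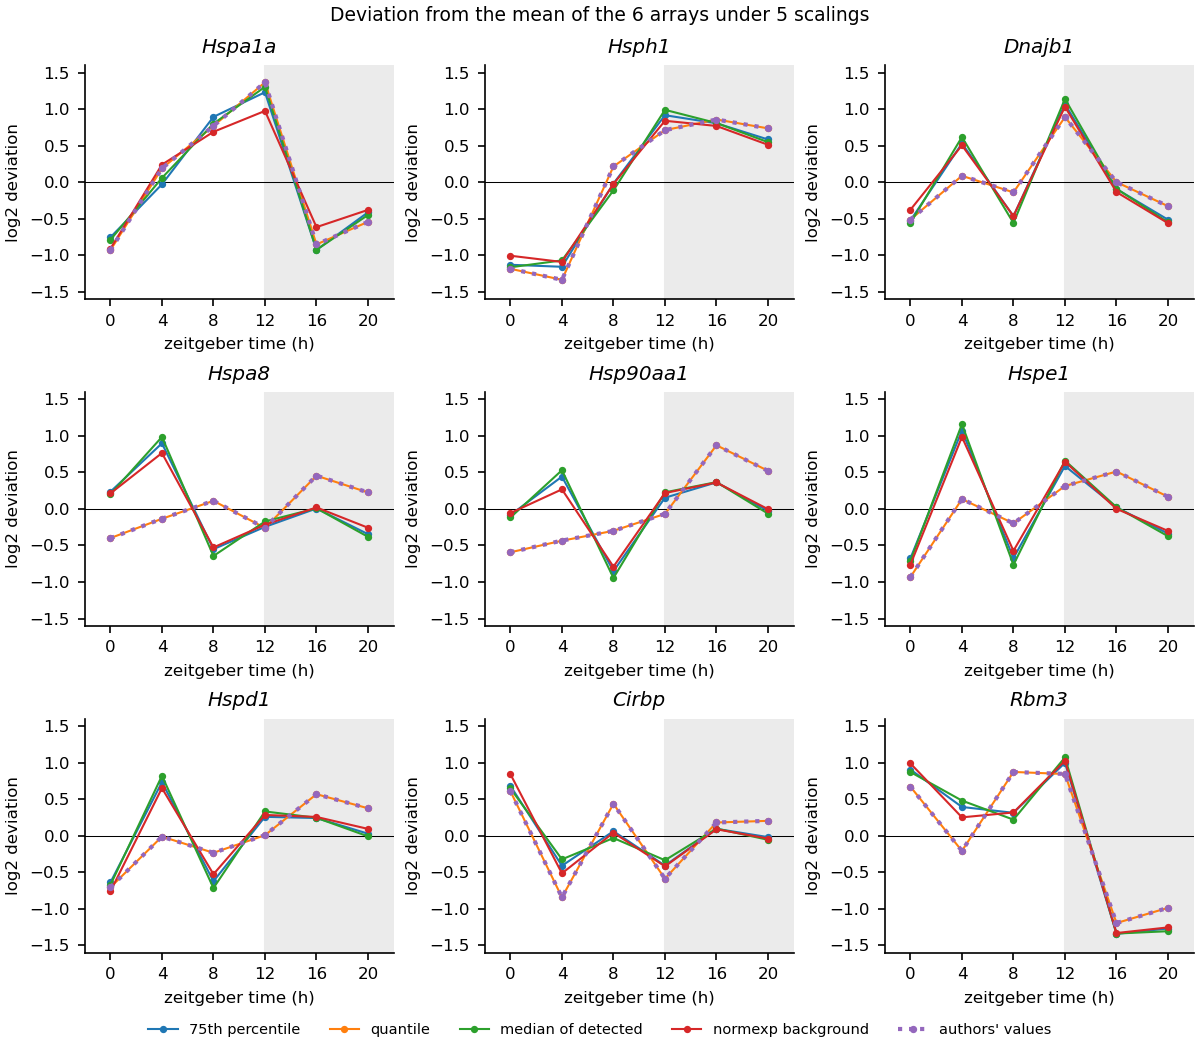
Deviation of each member from its mean over the 6 arrays (log2) against zeitgeber time under 5 scalings; the authors' values lie on the quantile-normalized line. On every line Hspa1a is highest at ZT12, Hsph1 lowest at ZT0 and ZT4, and Rbm3 lowest at ZT16 and ZT20, whereas the ZT4 values of Hspa8, Hsp90aa1, Hspe1 and Hspd1 are high with the 75th percentile and between -0.43 and 0.13 with quantile normalization.

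Rbm3, which in mouse brain protects synapses during cooling, had levels of 5.03, 4.52, 4.44, 5.12, 2.78 and 2.85 from ZT0 to ZT20. The level at ZT12 was 5.06-fold that at ZT16. This range of 2.34 log2 units was the widest among the 9 members with the 75th percentile, whereas under quantile normalization Hspa1a (2.30) and Hsph1 (2.19) exceeded Rbm3 (2.07). ZT16 and ZT20, at 2.85 or lower, did not overlap the 4 other arrays, at 4.44 or higher, an order seen in 16.4% of all genes. The same arrays were lowest on a second probe, with 1.63, 0.79, 2.60, 2.42, -0.36 and 0.06 from ZT0 to ZT20. The difference was present within the shared scan, where ZT8 and ZT12 were the high arrays. ZT16 and ZT20 were the lowest under all 5 scalings, whereas the highest array was ZT8 under quantile normalization.

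Markers of other cells moved with Rbm3. At ZT16 and ZT20 the median deviation was -3.02 and -2.68 for 10 lymphocyte markers, -1.79 and -1.74 for 5 macrophage markers and -1.55 and -1.50 for 6 stromal markers, beside -1.34 and -1.27 for Rbm3. These lists were below 0 on both arrays under all 5 scalings. ZT16 and ZT20 were the 2 lowest arrays for 8 of 10 lymphocyte, 4 of 5 macrophage and 6 of 6 stromal markers. The summed signal of the stromal list, relative to the 75th percentile, ran from 143 to 303 on the other 4 arrays and was 45.9 and 42.8 at ZT16 and ZT20. That sum includes Thy1, which like the lymphocyte median was highest at ZT4 (level 7.11). Col1a1, Col1a2, Col3a1 and Sparc were highest at ZT0 and Dcn at ZT12. In the macrophage list Cd74 (level 6.95), Csf1r and Adgre1 were highest at ZT4, and Mpeg1 and Lyz2 at ZT12. Whether the stromal, macrophage and lymphocyte lists share a source was not tested. For lymphocyte markers that sum ran from 73.6 to 346 on the other 4 arrays and was 29.6 and 15.8 at ZT16 and ZT20, and for macrophage markers it ran from 40.8 to 252 and was 16.9 and 15.6. All these markers were well above background on all 6 arrays. With the lymphocyte mean as a covariate, the fitted peak minus trough of Rbm3 was 0.76 ± 1.32 (SE) log2 units in place of 1.92 ± 0.97. The lymphocyte markers themselves had a median fitted peak minus trough of 5.40 log2 units. Covariate and cosine therefore cannot be told apart on 6 arrays, and the part of these cells in the Rbm3 levels was not tested.

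Cirbp, whose protein in mouse fibroblasts shapes the amplitude of clock gene rhythms, had levels of 3.85, 2.76, 3.23, 2.76, 3.26 and 3.15 from ZT0 to ZT20. It differed by 2.13-fold between ZT0 and ZT4, a range of 1.09 log2 units with the 75th percentile and 1.45 under quantile normalization. ZT0 was its highest array and ZT4 and ZT12 its lowest pair under all 5 scalings. ZT0 was the highest array for 21.5%, ZT4 the lowest for 22.4% and ZT12 the lowest for 21.1% of all genes. ZT4 and ZT12 were also the lowest pair for the median of 11 endocrine markers, at -0.75 and -2.34 against 0.19 to 0.97 on the other arrays. Among those markers Ins1 (8.29) and Ins2 (8.75) were instead highest at ZT4. The summed endocrine signal was 1274 at ZT4 and 503 at ZT12 against 827 to 1507 elsewhere. Duct medians (-0.84 and -1.91) and endothelial medians (-0.56 and -0.30) had the same lowest pair. The part of these lists in the Cirbp values was not tested. Cirbp and Rbm3 did not follow each other, with Pearson's r of -0.02 over 6 arrays. Rbm3 minus Cirbp, as a difference of deviations, was 1.41 at ZT12 and -1.44 at ZT16.

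**Figure D3:**
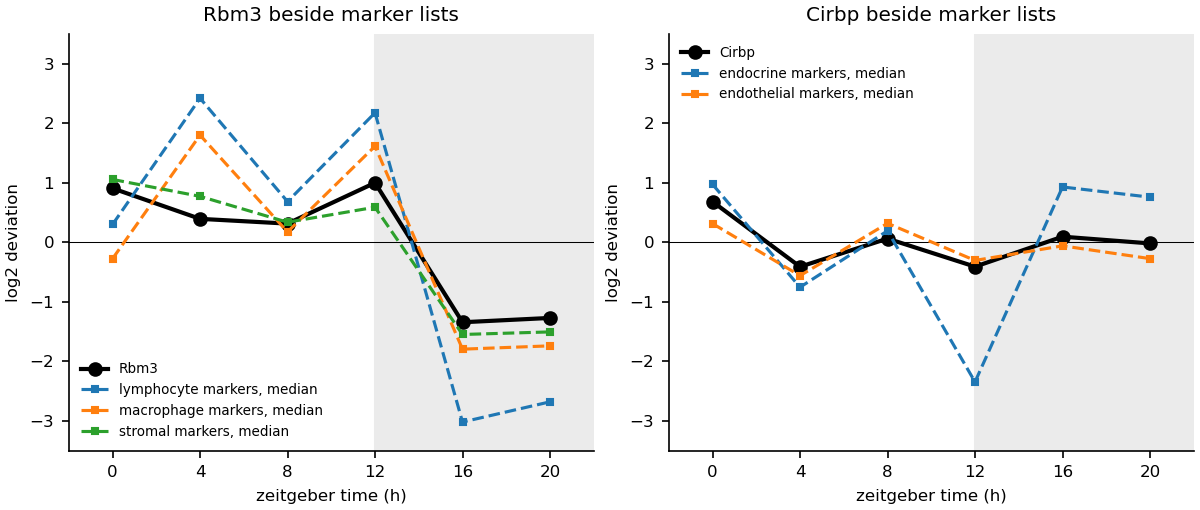
Deviation from the mean over 6 arrays (log2) against zeitgeber time for Rbm3 (left, black) with the medians of lymphocyte, macrophage and stromal markers, and for Cirbp (right, black) with the medians of endocrine and endothelial markers. Rbm3 and its 3 lists are below 0 at ZT16 and ZT20, and Cirbp and the endocrine list are below 0 at ZT4 and ZT12.

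Set against each other, the 7 heat shock genes had mean deviations of -0.51, 0.36, -0.33, 0.57, 0.06 and -0.15 from ZT0 to ZT20. The mean of Cirbp and Rbm3 was 0.79, -0.01, 0.19, 0.29, -0.62 and -0.64 at these times. The heat shock mean was lowest at ZT0 and positive at ZT12 and ZT16 under all 5 scalings. At the other times its sign was reversed under quantile normalization, with -0.22 at ZT4, 0.03 at ZT8 and 0.17 at ZT20. The authors' values gave nearly the same means. The 7 genes did not all move together. At ZT4 Hsph1 stood at -1.16 and Hspe1 at 1.07, and at ZT16 Hspa1a stood at -0.93 and Hsph1 at 0.81. Pearson's r between pairs of them ran from -0.70 (Hsph1 and Hspa8) to 0.93 (Hspe1 and Hspd1). Heat shock minus cold-inducible, in which the scaling factor of an array cancels, was -1.30, 0.36, -0.51, 0.27, 0.68 and 0.50 from ZT0 to ZT20. The difference was lowest at ZT0, which had a scan of its own and the most outlier spots, and highest at ZT16. Its sign at each time was the same under quantile normalization and normexp; median scaling cannot change it. Its range of 1.99 log2 units was 1.20 without the ZT0 array, so scan and time of day cannot be told apart for the rest of it. No p is given for this difference, because the genes were chosen as a set.

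The 2 cold-inducible genes contributed at different times. Heat shock minus Rbm3 was 1.40 at ZT16 and 1.12 at ZT20 and lay between -1.42 and -0.04 on the other 4 arrays. Heat shock minus Cirbp was 0.77 at ZT4 and 0.98 at ZT12, -1.19 at ZT0, and between -0.39 and -0.03 on the other 3. The dark-phase difference was thus carried by Rbm3, since heat shock minus Cirbp was -0.03 at ZT16 and -0.13 at ZT20.

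**Figure D4:**
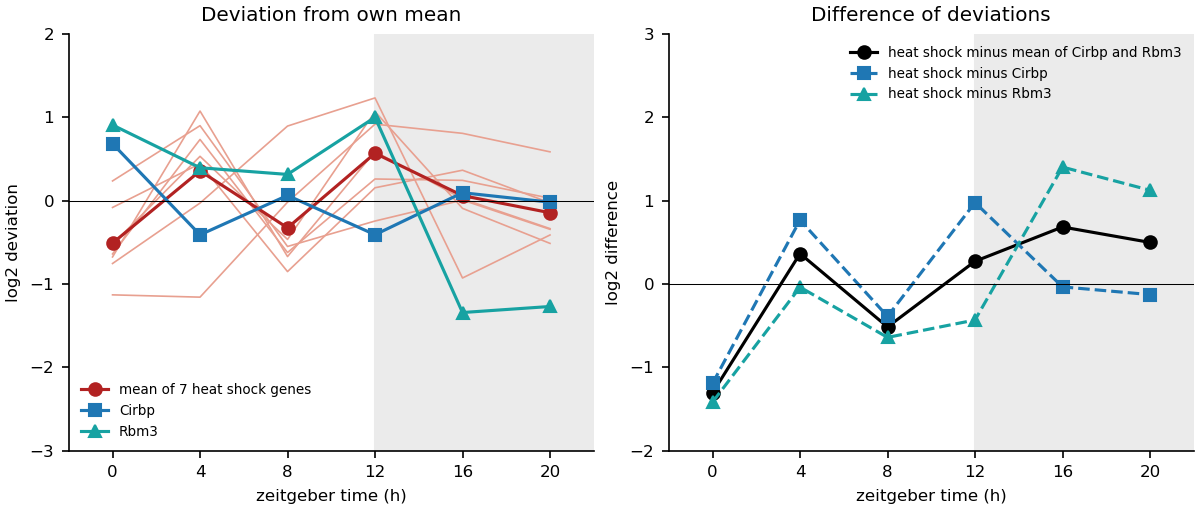
Left, deviation from each gene's mean over 6 arrays (log2) against zeitgeber time for 7 heat shock genes (thin lines), their mean, Cirbp and Rbm3. Right, heat shock mean minus Cirbp, Rbm3 or both; the difference from both is -1.30 at ZT0 and 0.68 at ZT16.

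Whether single genes followed a 24 h cosine was tested with limma on all 24127 genes. Of the 9 members, 0 passed at an adjusted p under 0.05, as did 0% of all genes, and the smallest adjusted p among members was 0.754. At an unadjusted limma p under 0.05 there was 1 of 9, beside 4% of all genes. This was Hsph1, with a fitted peak minus trough of 2.35 ± 0.70 (SE) log2 units, a fitted peak at ZT14.6 and an unadjusted limma p of 0.0355. An exact permutation test of the cosine fit over the 720 orders of the arrays gave Hsph1 p = 0.05. In that test 0.0167 is the smallest p possible, and 3.64% of all genes had 0.05 or less. Without the ZT0, ZT4, ZT12, ZT16 or ZT20 array the unadjusted limma p of Hsph1 was between 0.075 and 0.13. With scan as a covariate its peak minus trough was 1.41 ± 1.20 log2 units.

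Hspa1a had 1.94 ± 0.80 log2 units with a fitted peak at ZT9.26, and Rbm3 had 1.92 ± 0.97 log2 units. The fitted peak of Rbm3, ZT6.02 with all arrays, was ZT3.70 without the ZT12 array, ZT8.17 without ZT0 and ZT20.4 with the lymphocyte covariate. Their unadjusted limma p values were 0.119 and 0.214. Dnajb1 had 0.95 ± 0.85, Hspa8 0.79 ± 0.77, Hsp90aa1 0.45 ± 0.78, Hspe1 0.56 ± 0.93, Hspd1 0.24 ± 0.84 and Cirbp 0.59 ± 0.73. For these 6 genes the unadjusted limma p ran from 0.56 to 0.961, and no phase is given. Single arrays moved these values by over 1.5 times. With each array left out in turn Dnajb1 ran from 0.39 (without ZT12) to 1.98, Hspa8 from 0.40 to 1.22, Hsp90aa1 from 0.34 to 1.14, Hspe1 from 0.44 to 1.81, Hspd1 from 0.09 to 1.30 and Cirbp from 0.25 to 0.94. With scan as a covariate Dnajb1 had 2.31 ± 1.46, Hspe1 1.87 ± 1.33, Hsp90aa1 1.78 ± 1.13 and Hspd1 1.37 ± 1.16. The median peak minus trough was 0.79 over the 9 members and 1.33 over all genes. The members' median was 1.81 without ZT8, 1.29 without ZT4 and 1.78 with scan as a covariate. A p that misses the threshold does not show that a level was constant.

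**Figure D5:**
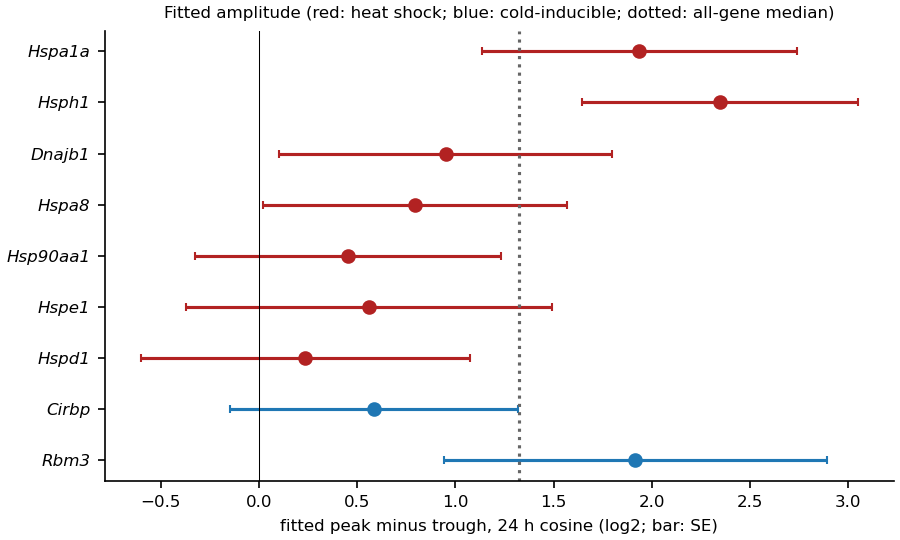
Fitted 24 h peak minus trough in log2 units (points) with its SE (bars) for the 7 heat shock genes (red) and 2 cold-inducible genes (blue); the dotted line is the median of all genes, 1.33. Hsph1, Hspa1a and Rbm3 lie to the right of that line and the other 6 to its left.

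Other genes of these pathways were counted in the same fit, and 0 genes of any list below passed at an adjusted limma p under 0.05. None of 23 further cytosolic heat shock and co-chaperone genes was under 0.05 by unadjusted limma p, and 6 of 23 differed past 4-fold between arrays, beside 53.3% of all genes. Their medians were 0.26 at ZT4 and 0.38 at ZT12 against -0.24 to 0.11 on the other arrays, although under quantile normalization the ZT4 median was -0.18. Single genes of the list differed from its median, such as Cacybp, which was lowest at ZT4. Among the brightest, Hsp90ab1, the constitutive HSP90, had levels of 7.01, 7.14, 5.79, 6.45, 6.16 and 5.89 from ZT0 to ZT20. Dnaja1, another HSP40, ran from 3.89 at ZT8 to 5.23 at ZT12, and Cdc37, which brings kinases to HSP90, from 3.43 at ZT16 to 4.98 at ZT4.

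Of the factors that control this response, Hsf1 ran from 1.23 at ZT0 to 2.52 at ZT4, Hsf2 from -2.11 at ZT12 to -1.34 at ZT16, and Hsbp1, an HSF1-binding inhibitor, from 0.31 at ZT0 to 2.18 at ZT20. Hsf4 was not tested, and 0 of the other 3 had an unadjusted p under 0.05. Of 8 other mitochondrial chaperones and proteases 0 did, and their medians lay between -0.36 and 0.33. Their brightest genes were Dnaja3 (2.22 to 2.95), Lonp1 (1.48 to 3.31) and Hscb (1.15 to 4.01). Of the 8 subunits of the cytosolic chaperonin, which folds actin and tubulin, 5 had ZT0 and ZT4 as their 2 lowest arrays, the order seen for Hsph1 and for 12% of all genes. Their medians were -0.72 at ZT0, -0.44 at ZT4 and 0.80 at ZT12, and ZT0 and ZT4 were negative under all 5 scalings. As for Hsph1, the low arrays were those scanned apart from the rest, so scan and time of day cannot be told apart. None of these subunits had an unadjusted p under 0.05. The 5 were Tcp1, Cct3, Cct4, Cct7 and Cct8. Of the brightest subunits, Cct7 (2.30 at ZT0 to 3.45 at ZT12) was among these 5, and Cct5 (4.35 at ZT8 to 5.90 at ZT4) and Cct2 (3.28 at ZT0 to 4.60 at ZT12) were not.

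Chaperones of the endoplasmic reticulum, which fold secreted proteins such as proinsulin, were described the same way. The medians of 13 such genes were 0.31, -0.91, -0.06, -0.73, 0.81 and 0.66 from ZT0 to ZT20. Under all 5 scalings the ZT4 and ZT12 medians were the lowest pair, while ZT0 was -0.12 under quantile normalization. ZT4 and ZT12 were also the lowest pair for the medians of endocrine markers, at -0.75 and -2.34, and of duct markers, at -0.84 and -1.91. Endothelial medians, at -0.56 and -0.30, had the same lowest pair, whereas the endocrine markers Ins1 and Ins2 were highest at ZT4. The part of these lists in the chaperone values was not tested. Hspa5, the HSP70 of this compartment, had 7.61, 6.51, 5.84, 5.83, 6.89 and 6.66 from ZT0 to ZT20. Hsp90b1 ran from 4.73 at ZT4 to 6.06 at ZT20 and Pdia6, a disulfide isomerase, from 4.25 at ZT12 to 7.33 at ZT0. In this list 8 of 13 differed past 4-fold, beside 53.3% of all genes, and by unadjusted limma p 0 of 13 were under 0.05.

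Of 10 other genes with the RNA-recognition motif that Cirbp and Rbm3 carry, 0 had an unadjusted p under 0.05 and their medians stayed between -0.34 and 0.38. In this list 1 gene, Rbm5, had ZT16 and ZT20 as its 2 lowest arrays, as Rbm3 did. The brightest were Rbm39 (3.80 to 5.85), Rbm5 (2.91 to 3.70) and Rbm10 (0.38 to 2.85). Immediate early genes, which cells switch on within minutes of handling, had medians between -0.27 and 0.50, and 0 of the 10 tested had an unadjusted p under 0.05. Of these, Btg2 ran from 3.27 to 4.01, Nr4a1 from 2.79 to 3.58 and Egr1 from 1.77 to 2.87. Of 6 clock genes 2, Dbp and Nr1d1, had an unadjusted limma p under 0.05 (0.042 and 0.0098), beside 4% of all genes. Dbp, a clock output gene, had 3.82, 4.05, 3.83, 3.55, 1.99 and 1.16 from ZT0 to ZT20, low on the 2 arrays where Rbm3 was low. Nr1d1 was low on the same arrays, at -6.14 for ZT16 and -5.81 for ZT20 against -3.43 or higher elsewhere. Those low levels lay below the dimmest probe well above background on each of these arrays (-5.18 and -5.47). Nfil3 and Arntl were highest at ZT20, at 1.97 and 1.37.

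By Pearson's r over the 6 arrays, among 13834 named genes detected on all arrays, the genes most like the heat shock mean were Nsun2 (0.996), Picalm (0.994), Akr1b10 (0.993), Vps26c (0.991) and Tex10 (0.985). In all, 254 genes had an r over 0.9 with that mean. Those most like Cirbp were Samd4b (0.992) and Cetn1 (0.989), with 307 genes over 0.9. Those most like Rbm3 were Vim (0.998), Gbp8 (0.997) and Mylip (0.997), with 644 genes over 0.9. Vim encodes vimentin, an intermediate filament of mesenchymal and blood cells, and had 5.65, 4.89, 4.74, 5.62, 2.70 and 2.58 from ZT0 to ZT20. These values share the same 6 libraries and describe likeness only.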

How the data were processed

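The processed signal is a linear intensity that Agilent Feature Extraction 11.0.1.1 wrote, per the file headers, after background subtraction within each array and with no normalization between arrays. The authors deposited these files and a table of log2 values for 30170 probes, whose column medians were 8.62 to 8.63 and which correlated with the log2 intensity at r of 0.999 to 1.00. Its genes were not centred, and how it was normalized is not given in the sources used here. Flags of 0 or 1 in the deposited files mark detection, saturation (0 member spots) and outliers.

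Control spots were left out and spots of a probe averaged, giving 39429 probes, of which 27234 matched a RefSeq name of GRCm38.p6 by accession. A probe was tested when well above background on at least 3 of 6 arrays and not an outlier. The brightest probe stood for its gene. Log2 intensities were scaled to the 75th percentile of each array, and a 24 h cosine was fitted with limma 3.58.1 in R 4.3.3 (3 residual and 4.04 prior degrees of freedom), with Benjamini-Hochberg adjustment over 24127 genes at 0.05. The fit was tested on simulated data. The number of arrays limits the precision, and p-values measure the scatter of pooled arrays around a curve. All members were named, with the 3 brightest genes of each other list and the genes of highest r, of which 1 is not reported here. Members and lists were chosen with earlier results of these data known. Alternatives covered scaling, background, filters, probe choice, covariates, tests and each array left out.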

Additional observations from a re-analysis of the deposited data

How the results depend on the processing

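Over the 18 alternatives of the cosine fit, 0 of 9 members passed in any, and the smallest adjusted limma p was 0.279, without ZT8. The count of members at an unadjusted p under 0.05 was 1 with all arrays. It was 0 with scan as a covariate, with the lymphocyte mean as a covariate and in the exact permutation test. In the permutation test this rests on a tie, since Hsph1 had p = 0.05, at the threshold and not under it. Leaving out single arrays the count ran from 0 to 1, with 0 without ZT0, ZT4, ZT12, ZT16 or ZT20. Over all genes that count was 965, and 4026 without ZT8, 2452 without ZT12, 417 without ZT16, 347 without ZT20, 440 with scan and 605 in the permutation test. By permutation 878 genes had 0.05 or less. The range of heat shock minus cold-inducible, 1.99, was 1.20 within the shared scan. Leaving out single arrays it ran from 1.20 to 1.99, lowest without ZT0. The 3 members past 4-fold became 1 with normexp background correction, and 1 to 3 with single arrays left out, 1 without ZT12; this count was compared across settings after the data were seen. The median of all genes moved by up to 0.43 log2 units, at ZT4 with normexp. The cause of these moves was not tested, and the fits with an array left out also had fewer arrays. Single dim probes, such as the only probe of Hspa1a, limit small differences. No paired analysis was possible because each time point had 1 array.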

Other observations

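The dimmest Hspa8 probe gave a processed signal of 23.8 at ZT4 and 3196 to 14734 on the other 5 arrays, whereas the brightest Hspa8 probe had its highest level at ZT4. The untested Rbm3 probe gave 1194 at ZT0, where it carried the outlier mark, and 6.93 to 82.1 elsewhere, and was well above background on 4 of 6 arrays. The dimmer Hsph1 probe had a wider range over the arrays (3.64 log2 units) than the brighter one (2.07), with the same 2 low arrays.

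Differences between inducible members and Hspa8 depended on the Hspa8 probe. With its brightest probe, Hspa1a minus Hspa8, as a difference of deviations, was 1.44 at ZT8 and 1.48 at ZT12 and lay between -0.99 and -0.07 on the other 4 arrays. Dnajb1 minus Hspa8 was 1.31 at ZT12 and between -0.76 and 0.08 elsewhere. Hsph1 minus Hspa8 was -1.37 at ZT0 and -2.06 at ZT4 and between 0.53 and 1.16 on the 4 arrays of the shared scan. With the second Hspa8 probe, a choice added after seeing the data, Hspa1a minus Hspa8 was 0.97 at ZT8 and 0.59 at ZT12, and Dnajb1 minus Hspa8 was 0.43 at ZT12 and 0.47 at ZT0. Hsph1 minus that probe was -0.13 at ZT0 and -1.50 at ZT4. These differences were not tested, and such a ratio shows unequal change only.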
